A study of Mus musculus with 6 samples.

Results

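The nuclear-encoded subunits of respiratory complexes II, III, IV and V, with cytochrome c, were followed through an immunoprecipitation of RNA bound to FLAG-tagged LIN28B. Members were taken by gene name: Sdha to Sdhd, names beginning with Uqcr, Cyc1, Cycs, names beginning with Cox4 to Cox8 and names beginning with Atp5, with names containing -ps left out. This gave 51 of the 54752 genes in the deposited values, of which 4 belong to complex II, 9 to complex III, 19 to complex IV and 18 to complex V, and cytochrome c stands apart. The tet-LIN28B mice carry a human FLAG-tagged LIN28B cDNA under a tetracycline operator at Col1a on 1 allele, together with Rosa26-rtTA, so that doxycycline (Dox) switches the transgene on. The littermate control carries Rosa26-rtTA without the transgene, so its anti-FLAG immunoprecipitate (IP) contains no tagged protein and measures the background of the procedure. Both genotypes were treated alike: non-adherent bone marrow cells of adult mice spent 5 days in medium holding IL-7 (20 ng/mL) plus Dox, for which the sample descriptions give 0.1 mg/mL and the study's methods a concentration in µg/mL. IP and input were sequenced from 2 tet-LIN28B mice and 1 control mouse, 6 libraries in all. The rtTA is expressed in all cells of the culture that use the Rosa26 locus, and the culture was not sorted, so the IP is not limited to B cell progenitors.

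Oxidative phosphorylation passes electrons from succinate through complex II, and from the quinone pool through complex III and cytochrome c to complex IV, and uses the resulting proton gradient to drive ATP synthase, which is complex V. All subunits of complex II are encoded in the nucleus, whereas complexes III, IV and V combine nuclear-encoded subunits with a few that are made inside the mitochondrion. LIN28B, an RNA-binding protein made mainly before and shortly after birth, keeps let-7 microRNAs from maturing and also binds mRNAs, and its zinc knuckles recognise the letters GGAG. The question here was which transcripts of these complexes were recovered with the tagged protein, and whether the complexes differed in this.

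Positions and sequences are those of GENCODE M21 on GRCm38, in which 49 of the 51 members were matched to a transcript model. Atp5o, though tested, and Atp5o.1 were not matched. Results on sequence and on protein-coding members therefore leave out Atp5o. The letters GGAG, searched on the sense strand of the mRNA, were present in the transcripts of all 43 tested protein-coding members and in 99.6% of the 5641 tested protein-coding transcripts. The longer letters GGAGA, which contain GGAG, occurred in 94.1% of those 5641 transcripts. Within the coding sequence, GGAG was found in 5 of 5 protein-coding members with a tet-LIN28B ratio of IP to input above that of the control by limma at an adjusted p under 0.05, in 8 of 10 that were lower and in 27 of 28 that passed in neither direction, against 98.4% of all tested coding sequences. By that test 3.61% of all genes were higher and 17.5% lower. GGAGA anywhere in the mRNA was found in 4 of the 5 higher members, 6 of the 10 lower and 22 of the 28 others. Among all tested protein-coding genes it was in 92.7% of those higher and 85.8% of those lower. The median mRNA length was 714 bases in the members and 2220 in all tested protein-coding genes. A match is a description of the letters and not a binding site. The stretches below show that transcripts at opposite ends of the IP/input range held the same letters. Each is a 30-base window around the first coding GGAGA whose window lies within 1 exon, or around the first such GGAG where no GGAGA had one, and the capitals mark these letters. Atp5h, shown with GGAG, held GGAGA at 2 places in its coding sequence that had no such window. Uqcrb, Cox6c and Atp5h had high ratios in the tet-LIN28B mice, and Cox8a and Atp5g1 had low ones.
Uqcrb (chr13:66900759-66900788, minus strand): tcgggaaagaaaGGAGAgagaagagtgggc
Cox6c (chr15:35937159-35937188, minus strand): cattgtggccctgGGAGttgccgctgccta
Atp5h (chr11:115418441-115418470, minus strand): gggtatcttttgtGGAGgtcatgccccaaa
Cox8a (chr19:7215396-7215425, minus strand): cctgtcacacctGGAGAgctacaagaagcg
Atp5g1 (chr11:96073556-96073585, minus strand): tgtggctggatcaGGAGctggcattggcac

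Values were deposited as FPKM, fragments scaled to transcript length and to the mapped fragments of the library, without counts, so sequencing depth cannot be read from them and counting intervals are not given. The libraries summed to 1144868 to 1384941 FPKM. Members made up 4.28% and 4.96% of the summed FPKM in the tet-LIN28B IPs, against 3.42% and 4.11% in the inputs of the same mice. In the control they made up 3.61% of the IP and 4.02% of the input. Of the 11 B cell progenitor markers, all 11 were at 1 FPKM or more in the inputs, with inputs summing to 11200 and 13700 FPKM for tet-LIN28B and 14200 FPKM for the control. The 7 myeloid markers were also present, at 7430 and 4640 FPKM in inputs of tet-LIN28B mice and 6390 FPKM in the control input. Lists of 5 T and NK cell, 3 erythroid and 5 stromal and endothelial markers summed to at most 86.1 FPKM in the inputs, and 2 megakaryocyte markers to between 432 and 795 FPKM. The part of these other cells in the results was not tested.

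Members whose inputs averaged 10 FPKM or more were tested, which left 45 of the 51, within 6347 genes in all. The 6 others were Cox4i2, Cox6b2, Cox7b2, Cox8b, Cox8c and Atp5o.1. Cox6b2, a form of the subunit Cox6b known from testis, reached 3.99 and 4.70 FPKM in inputs of tet-LIN28B mice and 9.16 FPKM in the control input, and the remaining 5 stayed at or under 0.8 FPKM in every library. No member differed in input level between the genotypes past the threshold: 0 of 45 were called by limma at an adjusted p under 0.05, and 0 did so at an unadjusted p under 0.05. Over all tested genes 0.205% were called higher and 0.0788% lower in the tet-LIN28B inputs. In such bulk cultures fewer cells of a type and less RNA per cell cannot be told apart.

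In the tet-LIN28B mice the members spread to both sides of their inputs, and more of them were depleted than enriched in the IP. Of the 45 tested, 9 were higher in the IP than in the input (20.0%), 26 were lower (57.8%) and 10 passed in neither direction (limma on log2((IP + 1)/(input + 1)), Benjamini-Hochberg adjusted p under 0.05). Over all tested genes 18.5% were higher and 41.5% lower. With the log2 ratios of each mouse centred on the median of all genes, 14 members were higher and 21 lower, beside 30.7% and 33.3% of all tested genes. An average IP/input ratio above 2 was reached by 7 members, and 20 averaged below 0.5, against 9.97% and 31.1% of all tested genes. In the control IP 0 members lay above 2 and 4 below 0.5, where 4.02% and 3.45% of all tested genes did. By the same limma fit 0 members were higher and 0 lower in the control IP than in its input. Of all genes 0.126% were called higher and 0.205% lower there. At an unadjusted p under 0.05 from that fit, 0 members were higher and 6 lower, beside 518 and 414 of all 6347 genes. Across the members, the log2 ratio had an SD of 1.69 and 1.53 for tet-LIN28B and 0.50 for the control. The corresponding spread over all tested genes was 1.42 in tet-LIN28B mouse 1 and 0.72 in the control. Both tet-LIN28B mice ranked the members alike, with Pearson r = 0.967 and Spearman rho = 0.962 over 45 log2 ratios that share depth and scale within each library. Over all 6347 tested genes r was 0.846 and rho 0.915, so close agreement was not particular to the members. Cyc1 showed the widest gap between the mice, 1.29 on the log2 scale.

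**Figure D1:**
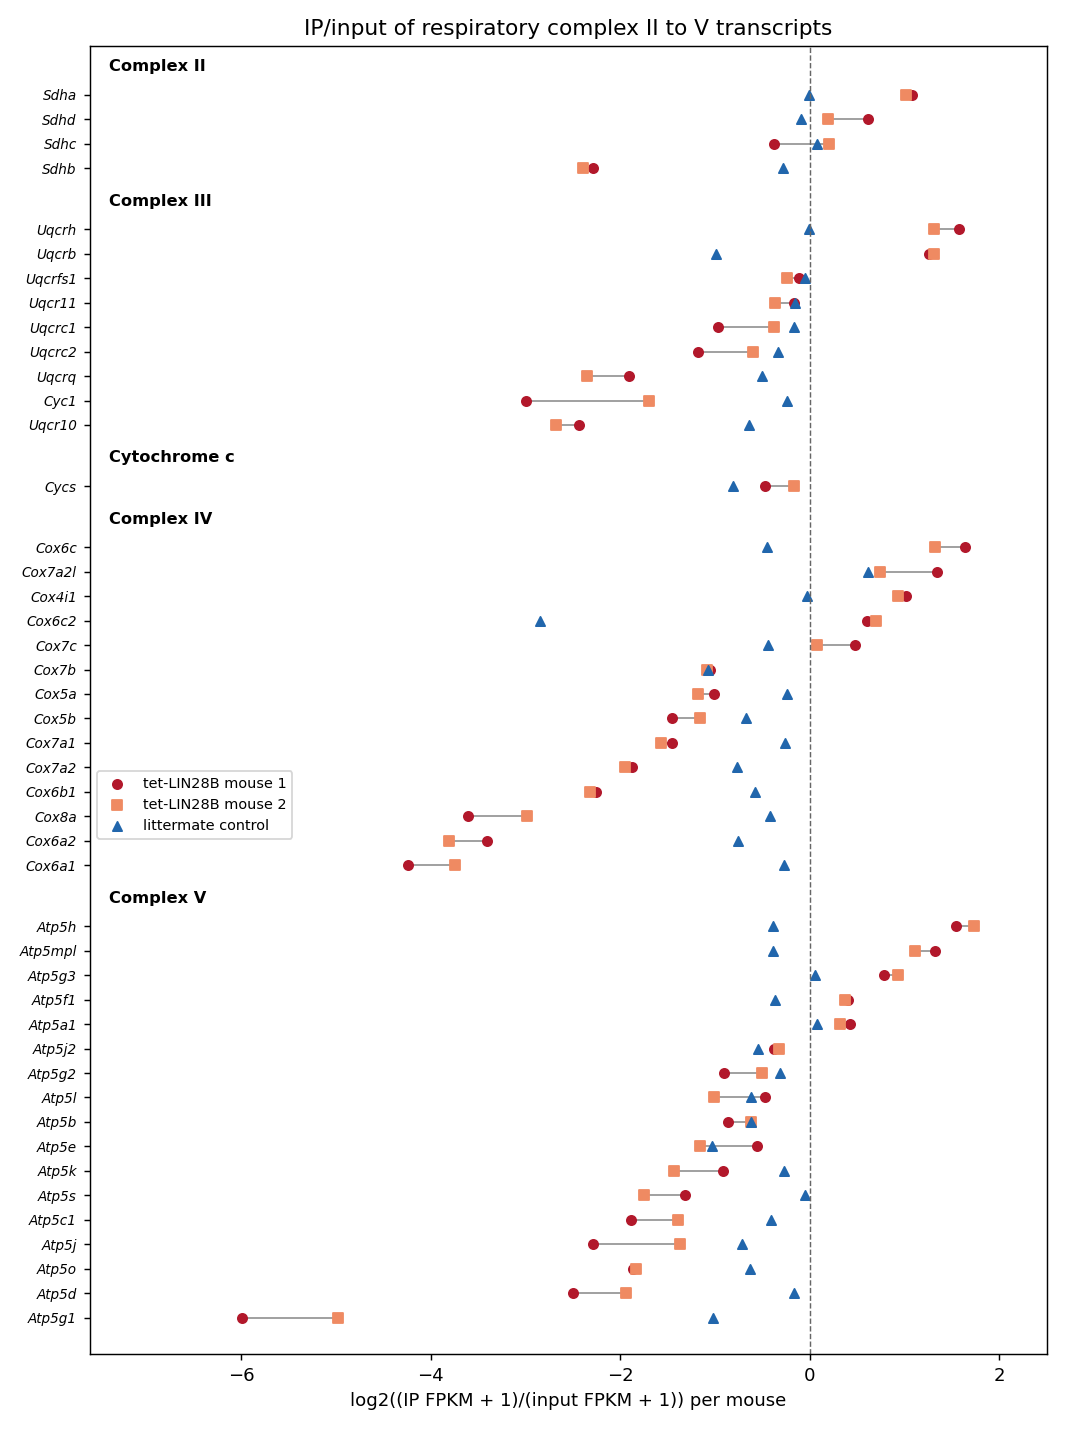
Log2 ratio of IP to input for each of the 45 tested members (rows, by complex), in tet-LIN28B mouse 1 (circles), tet-LIN28B mouse 2 (squares, joined to mouse 1 by a line) and the littermate control (triangles). The tet-LIN28B points run from -5.99 to 1.73, while the control points lie between -2.85 and 0.62.

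The ratios of all genes were shifted between the genotypes. Their median log2 IP/input ratio stood at -0.41 and -0.28 for tet-LIN28B and at -0.02 for the control, and the median difference, tet-LIN28B minus control, was -0.39. Against this, the median difference of the members was -0.17. Each complex held members on both sides. The median log2 ratio of complex II was 0.12 and 0.20 for tet-LIN28B and -0.05 for the control, and that of complex III was -0.97 and -0.38 in tet-LIN28B and -0.24 in the control. Complex IV had the lowest medians of the 4 complexes, -1.25 and -1.17 in tet-LIN28B, with -0.44 in the control. Complex V lay at -0.86 and -1.01 in tet-LIN28B and at -0.39 in the control. These medians are descriptions of 4, 9, 14 and 17 tested members and carry no test, since members are not replicates and an exact permutation of 2 mice against 1 cannot go below a p of 0.333. Relative to input, 1 member of complex II was higher and 1 lower in the tet-LIN28B IPs, 2 and 5 in complex III, 3 and 9 in complex IV, and 3 and 11 in complex V.

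Against the control, 6 members had a higher IP/input ratio in tet-LIN28B mice (13.3%), 10 a lower one (22.2%) and 29 passed in neither direction, by limma at an adjusted p under 0.05. Of all tested genes 3.61% were higher and 17.5% lower. Among the 6 higher was the pseudogene Cox6c2, which shared 52.8% of its 50-base stretches with Cox6c, also among them. Cox6c2 was listed at 0 in the control IP, and its control input of 6.20 FPKM lay under the 10 FPKM that the filter asks of the mean. Of the 43 protein-coding members 5 were higher and 10 lower. After centring 8 members were higher and 9 lower, beside 8.59% and 15.1% of all tested genes. The ratios of both tet-LIN28B mice lay above the control for 16 members and below it for 24, and the control fell between them for 5, where 28.0% and 59.8% of all tested genes lay above and below. Complex II held 0 higher and 1 lower, complex III 2 and 2, complex IV 2 and 5, and complex V 2 and 2. With the replicate block left out, so that IP and input of a mouse were no longer tied, 0 members were higher and 3 lower. With a filter at a mean input of 1 FPKM 0 were higher and 0 lower. Shares of all tested genes under these alternatives are not given here. Whether the loss of calls is particular to the members can therefore not be read from these counts. The residual spread has 1 degree of freedom per gene, and the spread of the single control was taken from that between the tet-LIN28B mice.

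**Figure D2:**
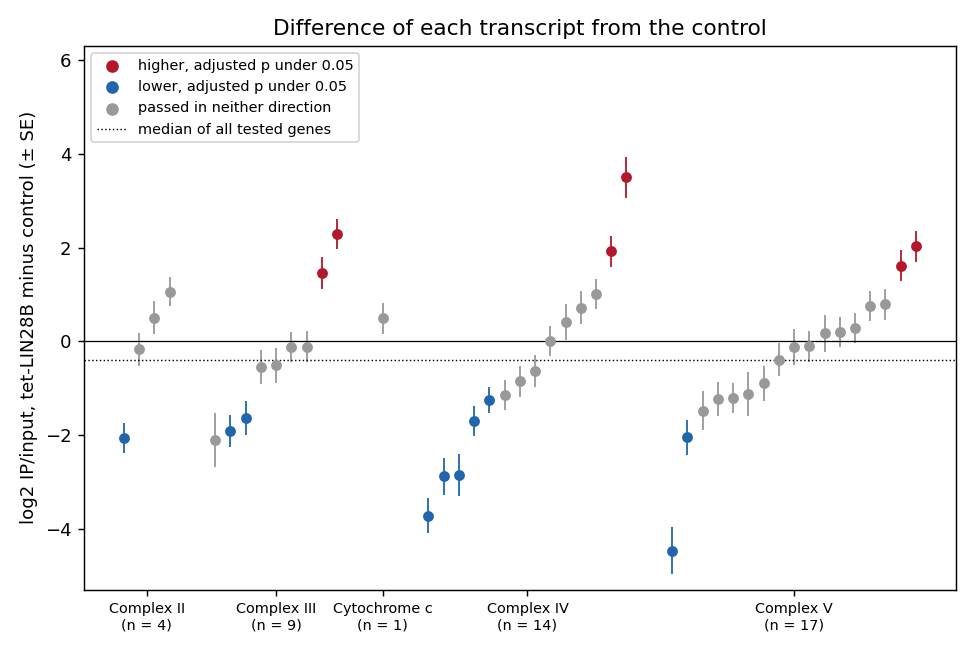
Difference in log2 IP/input ratio, tet-LIN28B minus control, for each tested member, with its standard error from limma, grouped by complex and ordered by value. The zero line is solid, and the dotted line is the median of all tested genes at -0.39. Coloured points are the 6 members called higher, the pseudogene Cox6c2 among them, and the 10 called lower.

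Complex II oxidises succinate and is also an enzyme of the citric acid cycle. Its catalytic subunits moved apart. Sdha, the flavoprotein that holds the active site, had 228 and 213 FPKM in the tet-LIN28B IPs and 107 and 104 FPKM in their inputs, giving ratios of 2.12 and 2.04. The control had 97.3 FPKM in the IP and 98.0 FPKM in the input, a ratio of 0.993. Both tet-LIN28B mice were above the control, and the ratio was higher than 1 in tet-LIN28B (log2 1.05 ± 0.18 SE, adjusted p = 0.00475 from limma), while the difference from the control, 1.06 ± 0.31 on the log2 scale, had an adjusted p of 0.062. Sdhb, the iron-sulphur subunit that takes the electrons from Sdha, showed the opposite pattern. It had 29.0 and 29.8 FPKM in the tet-LIN28B IPs, against 145 and 160 FPKM in the inputs, and 156 FPKM in the control IP against 190 FPKM in the control input. Its ratios of 0.200 and 0.186 in tet-LIN28B lay below 0.824 in the control (log2 difference -2.06 ± 0.32, adjusted p = 0.0183 from limma). The membrane anchors Sdhc and Sdhd had ratios of 0.760 and 1.15, and of 1.54 and 1.14, in tet-LIN28B, with 1.06 and 0.937 in the control, and passed in neither direction.

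In complex III the transcripts split within the supernumerary subunits, small proteins that surround the catalytic core. Uqcrb, the ubiquinol-cytochrome c reductase binding protein, lies on chromosome 13 from 66900617 to 66905378. It had 3859 and 6284 FPKM in the tet-LIN28B IPs and 1609 and 2536 FPKM in the inputs. The control IP had 1064 FPKM and the control input 2116 FPKM. The ratios of 2.40 and 2.48 in tet-LIN28B lay well apart from 0.503 in the control, with a log2 difference of 2.28 ± 0.32 (limma, adjusted p = 0.0163). The control IP held less Uqcrb than its input, with a log2 ratio of -0.99 (limma, adjusted p = 0.222). Uqcrh, the hinge protein that helps cytochrome c1 to meet cytochrome c, reached 4532 and 4441 FPKM in the tet-LIN28B IPs and 1511 and 1788 FPKM in the inputs. In the control it was at 1734 FPKM in the IP and 1741 FPKM in the input, so that ratios of 3.0 and 2.48 stood against 0.996 (log2 difference 1.45 ± 0.34, adjusted p = 0.0381 from limma).

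Uqcr10 and Uqcrq, 2 more small subunits of complex III, went the other way. Uqcr10 had 260 and 269 FPKM in the tet-LIN28B IPs and 1411 and 1731 FPKM in the inputs, against 1116 FPKM in the control IP and 1740 FPKM in the control input. Its ratios were 0.185 and 0.155 in tet-LIN28B and 0.641 in the control, a log2 difference of -1.92 ± 0.34 (limma, adjusted p = 0.0221). Uqcrq, a subunit described as ubiquinone-binding, had ratios of 0.265 and 0.196 in tet-LIN28B and 0.707 in the control, a log2 difference of -1.63 (limma, adjusted p = 0.0339). Uqcr11, at 0.897 and 0.773 in tet-LIN28B and 0.904 in the control, passed in neither direction. Inputs of these 5 small subunits lay within 1411 to 2536 FPKM in the tet-LIN28B mice, so that transcripts of similar input level were found at both ends. All 4 core subunits of complex III had lower ratios in both tet-LIN28B mice than in the control, but 0 of the 4 passed the test of that difference. Cyc1, cytochrome c1, was the lowest at 0.115 and 0.300 in tet-LIN28B and 0.848 in the control (log2 difference -2.11 ± 0.57, adjusted p = 0.0535 from limma). The Rieske iron-sulphur protein Uqcrfs1 was the closest to its input, at 0.929 and 0.847 in tet-LIN28B and 0.967 in the control. Uqcrc1 and Uqcrc2, the core proteins, had ratios of 0.503 and 0.767, and of 0.433 and 0.654, in tet-LIN28B, with 0.892 and 0.790 in the control.

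Cytochrome c, the soluble carrier between complexes III and IV, is encoded by Cycs in somatic cells. It had 72.4 and 123 FPKM in the tet-LIN28B IPs and 101 and 139 FPKM in the inputs, and 79.7 FPKM in the control IP and 141 FPKM in the control input. Ratios of 0.720 and 0.886 in tet-LIN28B were above 0.566 in the control, and neither the level against input nor the difference passed the test (limma, adjusted p = 0.194 and 0.317). Cycs shared 28.5% of its 50-base stretches with transcripts of 76 other genes, and with those genes summed the log2 difference was 0.00 in place of 0.49.

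Complex IV reduces oxygen to water, and its catalytic core is made in the mitochondrion, so that every nuclear-encoded member here is a supernumerary subunit or a relative of one. Cox6c, whose protein sits in the membrane part of the enzyme, had the highest level among the members, with 11575 and 12446 FPKM in the tet-LIN28B IPs and 3721 and 4990 FPKM in the inputs. The control had 3364 FPKM in the IP and 4588 FPKM in the input. Ratios of 3.11 and 2.49 in tet-LIN28B and 0.733 in the control gave a log2 difference of 1.92 ± 0.33 (limma, adjusted p = 0.0217). Cox6c2, annotated as a processed pseudogene of it, shared 52.8% of its 50-base stretches with Cox6c, so their reads may be assigned to either. Cox6c2 had 15.1 and 27.9 FPKM in the tet-LIN28B IPs and 9.56 and 16.7 FPKM in the inputs, and it was listed at 0 in the control IP and at 6.20 FPKM in the control input. It was called higher than the control (limma, adjusted p = 0.0144), but no fold is given against a value of 0.

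Cox6a1, the ubiquitous form of subunit Cox6a, lay at the other end. It had 81.9 and 149 FPKM in the tet-LIN28B IPs, against 1568 and 2002 FPKM in the inputs, and 1795 FPKM in the control IP against 2165 FPKM in the control input. The ratios of 0.0522 and 0.0743 in tet-LIN28B were far below 0.829 in the control (log2 difference -3.72 ± 0.37, adjusted p = 0.0119 from limma). Cox6a2, the heart and muscle form, was listed at 0 in both tet-LIN28B IPs, with 9.62 and 13.1 FPKM in the inputs, and was at 4.80 FPKM in the control IP and 8.83 FPKM in the control input. It was called lower than the control (limma, adjusted p = 0.0193) at levels close to the filter, and its transcript overlaps Itgad. Cox8a, the ubiquitous form of subunit Cox8, had 222 and 401 FPKM in the tet-LIN28B IPs, against 2729 and 3179 FPKM in the inputs, with 2619 FPKM in the control IP and 3496 FPKM in the control input. Its ratios were 0.0814 and 0.126 in tet-LIN28B and 0.749 in the control, a log2 difference of -2.88 ± 0.39 (limma, adjusted p = 0.0157). Cox6b1, which faces the intermembrane space and helps hold the dimer, had ratios of 0.210 and 0.200 in tet-LIN28B and 0.667 in the control (log2 difference -1.70 ± 0.32, adjusted p = 0.0253 from limma).

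The Cox7a genes, forms of 1 subunit, did not move as a group. Cox7a1, the muscle form, had 10.7 and 11.5 FPKM in the tet-LIN28B IPs and 31.0 and 35.9 FPKM in the inputs, with 31.1 FPKM in the control IP and 37.4 FPKM in the control input. Its ratios were 0.345 and 0.319 in tet-LIN28B and 0.830 in the control, a log2 difference of -1.25 ± 0.28 (limma, adjusted p = 0.0363). Cox7a2, the form of most other tissues, was lower than its input at 0.272 and 0.259 in tet-LIN28B, and was at 0.585 in the control (adjusted p of the difference 0.0597 from limma). Cox7a2l, a related protein that joins complexes III and IV into supercomplexes, was instead higher than its input, at 2.53 and 1.67 in tet-LIN28B (limma, adjusted p = 0.0116), with 1.54 in the control. The control ratio of Cox7a2l was the highest among the members, and the difference from the control did not pass (adjusted p = 0.473 from limma). Cox4i1, the largest nuclear-encoded subunit of the enzyme, had ratios of 2.03 and 1.90 in tet-LIN28B and 0.977 in the control (log2 difference 1.01 ± 0.32, adjusted p = 0.079 from limma), and its gene overlaps Emc8. Summed with the gene that shares its stretches, Cox4i1 had a log2 ratio of 0.50 in place of 0.97 in tet-LIN28B and a difference of 0.46 from the control. Cox5a, which takes part in the early steps of assembly, had 843 and 940 FPKM in the tet-LIN28B IPs and 1693 and 2129 FPKM in the inputs, with 1775 FPKM in the control IP and 2101 FPKM in the control input. It was lower than its input in tet-LIN28B (log2 -1.09 ± 0.19, adjusted p = 0.00526 from limma), at ratios of 0.498 and 0.442 against 0.845 in the control, and its difference from the control had an adjusted p of 0.12. For Cox7b the ratios of 0.481 and 0.474 in tet-LIN28B were close to 0.475 in the control, so that it was called lower than its input in tet-LIN28B without standing apart from the control. Cox5b had ratios of 0.364 and 0.447 in tet-LIN28B and 0.629 in the control, and Cox7c of 1.39 and 1.06 in tet-LIN28B and 0.737 in the control.

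Complex V was described by its parts. The F1 head makes ATP, the c-ring turns with the flow of protons, and the peripheral stalk holds the head still. Among the 4 stalk subunits, Atp5h had the highest mean log2 ratio of the 45 members in tet-LIN28B mice, 1.64 ± 0.19. It had 4773 and 6630 FPKM in the tet-LIN28B IPs and 1632 and 1996 FPKM in the inputs, against 1517 FPKM in the control IP and 1993 FPKM in the control input. Its ratios of 2.92 and 3.32 in tet-LIN28B and 0.761 in the control differed by 2.03 ± 0.33 on the log2 scale (limma, adjusted p = 0.0195). Atp5f1 was also above its input and above the control in both tet-LIN28B mice, at ratios of 1.33 and 1.30 in tet-LIN28B and 0.773 in the control. Its log2 difference of 0.76, or 1.06 summed over the genes that share its stretches, did not pass (limma, adjusted p = 0.147), but under the study's filter (at least 50 FPKM in all 4 tet-LIN28B libraries) it was called higher than both its input and the control (limma, adjusted p = 0.0375 and 0.0305). Atp5o had ratios of 0.274 and 0.280 in tet-LIN28B and 0.646 in the control. Atp5j had 0.204 and 0.387 in tet-LIN28B and 0.612 in the control. In the main fit neither passed against the control (limma, adjusted p = 0.0526 and 0.142). Under the study's filter both were called lower than the control (limma, adjusted p = 0.000394 and 0.00667). Members outside the stalk also passed only there or in some alternatives, among them Sdha, higher, and Atp5c1, lower (limma, adjusted p = 0.00158 and 0.000266 under the study's filter). Under that filter, which itself uses the IPs, limma gave each gene the spread typical of its input level. The spread between the mice at the gene itself was not used. These p-values can therefore not be set beside those of the main fit.

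In the F1 head, 4 of 5 subunits were lower than their inputs in tet-LIN28B mice, beside 41.5% of all tested genes. Against the control 1 of 5 was also lower, beside 17.5% of all tested genes. That member was Atp5d, the delta subunit of the central stalk, with 53.3 and 91.5 FPKM in the tet-LIN28B IPs and 306 and 354 FPKM in the inputs, against 353 FPKM in the control IP and 399 FPKM in the control input. Ratios of 0.174 and 0.258 in tet-LIN28B and 0.886 in the control gave a log2 difference of -2.05 ± 0.38 (limma, adjusted p = 0.0248). Atp5b, the catalytic beta subunit, had ratios of 0.551 and 0.652 in tet-LIN28B and 0.648 in the control, and Atp5e, the epsilon subunit, of 0.678 and 0.446 in tet-LIN28B and 0.489 in the control, so both were low in every IP. Their calls against input were lost after centring (limma, adjusted p = 0.143 and 0.11). Atp5c1, the gamma subunit of the rotor, was at 0.267 and 0.380 in tet-LIN28B and 0.750 in the control. Atp5a1, the alpha subunit, was at 1.35 and 1.25 in tet-LIN28B and 1.06 in the control. Of the 4 small membrane subunits, Atp5mpl was higher than the control, at ratios of 2.51 and 2.16 in tet-LIN28B and 0.763 in the control (log2 difference 1.61 ± 0.33, adjusted p = 0.0286 from limma). It had 6081 and 6102 FPKM in the tet-LIN28B IPs and 2427 and 2828 FPKM in the inputs, against 2038 FPKM in the control IP and 2673 FPKM in the control input. Atp5k, Atp5l and Atp5j2 had ratios between 0.371 and 0.803 in tet-LIN28B and between 0.649 and 0.828 in the control. Atp5s, a factor related to the complex, was at 0.360 and 0.243 in tet-LIN28B and 0.962 in the control, with inputs of 11.3 to 13.9 FPKM.

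The 3 genes of the c-ring encode the same mature protein, and their transcripts parted in the IP. The last 78 residues of the 3 products were identical, while the 234 bases that encode them were 84.6% identical between Atp5g1 and Atp5g2, 78.6% between Atp5g1 and Atp5g3, and 77.4% between Atp5g2 and Atp5g3. The stretches below show this at 30 bases of the shared part, where the same residues are written with different codons and the capitals mark positions at which the 3 genes are not all alike.
Atp5g1 (chr11:96073107-96073136, minus strand): atggtCgcCttCCtCatcCtCttCgccatg
Atp5g2 (chr15:102663017-102663046, minus strand): atggtGgcCttTCtCatcCtCttCgccatg
Atp5g3 (chr2:73908596-73908625, minus strand): atggtTgcGttCTtGatcTtGttTgccatg

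Atp5g1 had 12.7 and 35.0 FPKM in the tet-LIN28B IPs, against 870 and 1136 FPKM in the inputs. The control IP had 575 FPKM and the control input 1164 FPKM. The ratios of 0.0146 and 0.0308 in tet-LIN28B were the lowest of the 45 members apart from Cox6a2, which was listed at 0, and the difference from 0.494 in the control was -4.47 ± 0.50 on the log2 scale (limma, adjusted p = 0.0127). Atp5g2 had 222 and 288 FPKM in the tet-LIN28B IPs and 414 and 409 FPKM in the inputs, with 368 FPKM in the control IP and 457 FPKM in the control input. Its ratios were 0.535 and 0.705 in tet-LIN28B and 0.805 in the control, lower than its input in tet-LIN28B (limma, adjusted p = 0.0307) and not apart from the control (adjusted p = 0.455). The call of Atp5g2 against input was lost after centring, and also with each library scaled to the same sum (TPM). Atp5g3 reached 2929 and 4209 FPKM in the tet-LIN28B IPs and 1710 and 2206 FPKM in the inputs, with 2106 FPKM in the control IP and 2020 FPKM in the control input. It was higher than its input in tet-LIN28B, at ratios of 1.71 and 1.91 (limma, adjusted p = 0.0118), and had 1.04 in the control (log2 difference 0.79 ± 0.33, adjusted p = 0.136). Atp5g1 shared 66.0% of its 50-base stretches with other genes and Atp5g2 100%, while Atp5g3 shared 0%. With FPKM times length summed over the genes that share stretches, the log2 difference of Atp5g1 was -4.53 and that of Atp5g2 was -1.20 in place of -0.39.

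**Figure D3:**
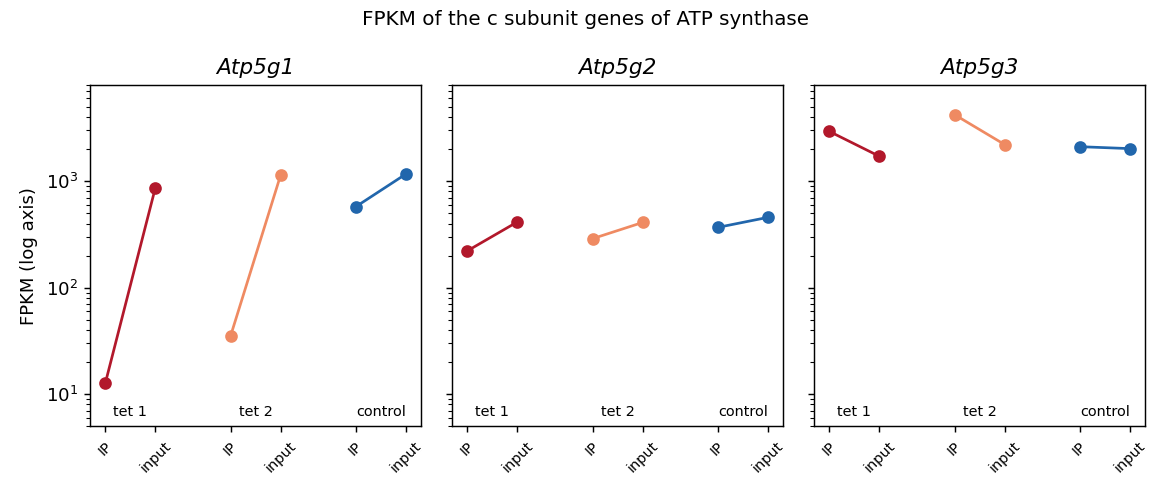
FPKM (log axis) of Atp5g1, Atp5g2 and Atp5g3 in the IP and the input of each mouse, 1 point per library, with lines joining the IP and the input of a mouse. For Atp5g1 the tet-LIN28B IPs lie at 12.7 and 35.0 FPKM, below every other library, whereas for Atp5g3 they are the 2 highest points, at 2929 and 4209 FPKM.

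Features of the transcripts that the choice of members did not use were then set beside the ratios. The GC content of the coding sequence, a feature chosen after the data were seen, differed without overlap between the members called in the main fit. It ran from 42.9% to 50.4% (median 49.3%) in the 5 protein-coding members that were higher than the control, and from 53.5% to 65.2% (median 57.3%) in the 10 that were lower. The 28 other protein-coding members covered both ranges, from 42.0% to 60.7% (median 52.1%). Under the study's filter Atp5c1 and Atp5j, with coding GC of 47.4% and 43.5%, were also called lower than the control. The ranges of higher and lower members overlapped there. Among all tested protein-coding genes, whose median was 51.9%, the 193 called higher had a median of 48.7% and a range of 36.4% to 71.9%, and the 890 called lower a median of 55.4% and a range of 32.3% to 75.6%, so that both sets overlapped over most of their range. Across the 43 protein-coding members, coding GC and the mean log2 ratio of the tet-LIN28B mice had a Spearman rho of -0.478, and a rho of 0.156 was found with the ratio of the control. Over 5641 genes rho was -0.239 in tet-LIN28B and 0.133 in the control. GC of the whole mRNA ran from 42.2% to 50.6% in the higher members and from 51.0% to 61.1% in the lower. Its rho with the tet-LIN28B ratio was -0.465. For the whole mRNA the separation depended on the transcript model. With the longest model of the same coding length, the ranges were 42.2% to 50.6% and 46.8% to 61.1%, which overlap. The rho was then -0.353. Coding GC was not compared between models. These are relations across genes of the same libraries, which are not independent replicates.

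**Figure D4:**
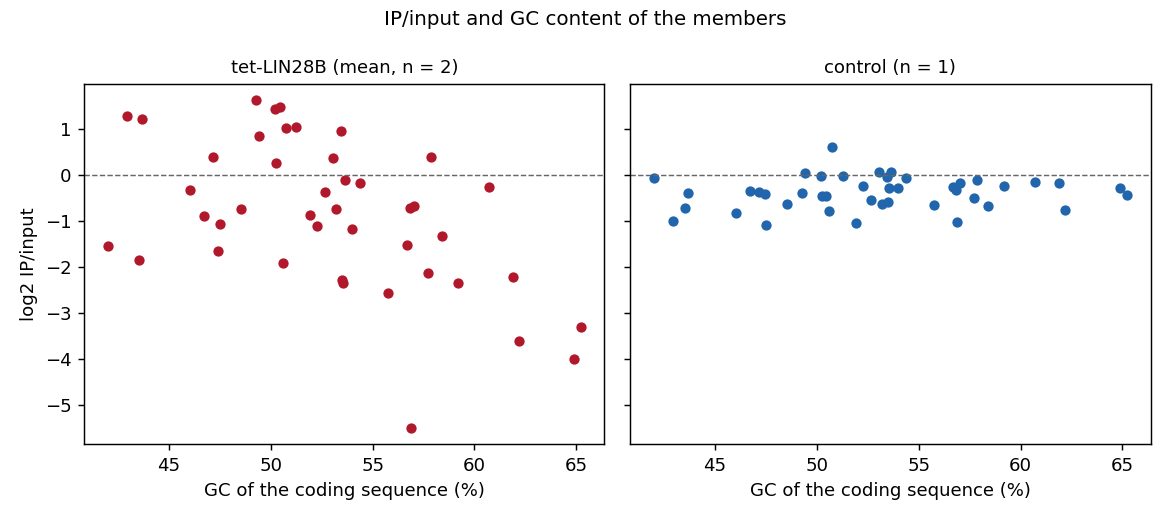
Log2 IP/input ratio against the GC content of the coding sequence (percent) for the 43 tested protein-coding members, as the mean of both tet-LIN28B mice on the left and in the control on the right, 1 point per gene. The tet-LIN28B points descend toward high GC (Spearman rho -0.478), and the control points do not (rho 0.156).

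The density of GGAG was set beside the ratios in the same way. Counted per kilobase of mRNA it had a Spearman rho of 0.0285 with the tet-LIN28B ratio over the 43 members, and within the coding sequence rho was 0.166. Per kilobase of coding sequence, the 5 members higher than the control had 4.39 to 12.4 (median 11.2), the 10 lower ones up to 19.3 (median 5.58) and the 28 others up to 18.8 (median 8.08), so the 3 sets overlapped. Over all tested genes the medians were 8.08 for those called higher and 7.81 for those called lower. Cox6b1 and Cox7a1, both lower than the control, had 0 in their coding sequence. Length of the mRNA had a rho of 0.095 over the members and of 0.35 over all 5641 genes in tet-LIN28B, against 0.30 and 0.434 in the control. Mean input level had a rho of 0.183 over the members.

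Other genes of the pathway were described in the same fit. Of 39 assembly factors of these complexes, 30 were tested: 3 were higher and 18 lower than input in tet-LIN28B mice, beside 18.5% and 41.5% of all tested genes, and 1 was higher and 6 lower than the control, which is 3.33% and 20.0% of them beside 3.61% and 17.5% of all tested genes. Their median log2 difference was -0.56, beside -0.39 for all tested genes. The highest of the 30 tested was the copper chaperone Cox17, at 7297 and 6146 FPKM in the tet-LIN28B IPs and 1634 and 1808 FPKM in the inputs, with 1688 FPKM in the control IP and 1733 FPKM in the control input. Its ratios were 4.47 and 3.40 in tet-LIN28B and 0.974 in the control. The mitochondrially encoded subunits of complexes III, IV and V, mt-Cytb, mt-Co1, mt-Co2, mt-Co3, mt-Atp6 and mt-Atp8, were all lower than input and than the control (6 of 6 in each). Their ratios lay between 0.00972 and 0.134 for tet-LIN28B and between 0.274 and 0.424 in the control, and their median log2 ratio was -4.51 in tet-LIN28B and -1.63 in the control. Ratios below 0.5 were thus also found for these transcripts in the IP without tagged protein.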

How the data were processed

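For each of 2 tet-LIN28B mice and 1 littermate control, RNA was sequenced from the anti-FLAG IP and from a part of the same lysate kept as input. Libraries were made with SMART-Seq v4 and Nextera XT, which do not mark strand, so reads of overlapping genes cannot be told apart. According to the submitters' processing notes, the authors used STAR 2.7.1, RSEM 1.28 and mm10, and the deposited values are FPKM per gene. The annotation release they used was not given in the sources used here. Titles and column names gave the fraction and genotype of each library. Sample descriptions end with the other fraction. Titles were followed, and the summed FPKM that the study lists by fraction runs the same way as the titles for all 6 libraries. Identical values were found in 0 of 15 library pairs.

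Log2((IP + 1)/(input + 1)) per mouse was fitted with limma 3.58.1 (R 4.3.3, Python 3.11.15) with a trend, genotype as the factor and all 6347 genes whose inputs averaged 10 FPKM or more. The study keeps genes at 50 FPKM or more in input and IP of both tet-LIN28B mice, which drops transcripts that are low in the IP, so that filter served as an alternative. Input and IP of a mouse come from the same lysate and were paired through the ratio: the change from 1 tet-LIN28B mouse to the other in the IP and that in the input had r = 0.12 over 6347 genes. In data simulated for 6347 genes with 200 changed, each gene was first given the spread fitted at its input level. The fit of IP against input in tet-LIN28B recovered 91% of log2 changes of 1 and 100% of those of 2. That of tet-LIN28B minus control recovered 27% and 96%. With a spread differing between genes these shares were 20% and 93%, and 0% and 0%. More genes than 200 were called in the data, 1177 higher and 2634 lower than input in tet-LIN28B. Against the control 229 were higher and 1113 lower. The threshold thus differed, and the simulated shares do not carry over to the data. P-values rest on the spread between 2 mice, which limma draws toward a trend over all genes. In the main fit each gene gave 1 degree of freedom and the trend 4.425. Under the study's filter the trend had infinite degrees of freedom, so the spread between the mice at a single gene did not enter its p-value.

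The members and lists were chosen with earlier results of these data known. Genes named by rule were Uqcrb, Cox6a1, Cox5a, Cycs, the c-ring genes, tested members of the paired forms of Cox4, Cox6a, Cox6b, Cox7a and Cox8, the 2 highest and 2 lowest of each complex in tet-LIN28B, and 5 rises and 5 falls of greatest size relative to the control. The other members and Cox17 were named after their values were seen. Transcript models were taken from GENCODE M21 by principal isoform, support level and coding length. Alternatives changed the filter, pseudocount, scaling, centring, trend, block and mice. Restrictions to protein-coding members and to members sharing at most 10% of their 50-base stretches, and GC content, were added after seeing the data.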

Additional observations from a re-analysis of the deposited data

Results flagged for a closer look

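Each entry here is a difference in the IP/input ratio between tet-LIN28B mice and the control that passed the test of the difference itself (limma, adjusted p under 0.05). There were 6 members higher and 10 lower. The log2 differences of those higher were 2.28 for Uqcrb, 1.45 for Uqcrh, 1.92 for Cox6c, 1.61 for Atp5mpl, 2.03 for Atp5h and 3.5 for Cox6c2. That last value is no fold, since the control IP of Cox6c2 was listed at 0: it was 6.67 with a pseudocount of 0.1 and 1.7 with one of 5. The log2 differences of those lower were -4.47 for Atp5g1, -3.72 for Cox6a1, -2.88 for Cox8a, -2.85 for Cox6a2, -2.06 for Sdhb, -2.05 for Atp5d, -1.92 for Uqcr10, -1.70 for Cox6b1, -1.63 for Uqcrq and -1.25 for Cox7a1. Cox6a2 was listed at 0 in both tet-LIN28B IPs, and its fitted value is likewise no fold: it was -5.96 with a pseudocount of 0.1 and -1.2 with one of 5. Groups of 2 mice and 1 mouse are too small for a search for outlying samples.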

How the results depend on the processing

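For IP against input in tet-LIN28B mice, 30 of the 35 called members kept their direction and their call under every alternative that could be tested. Those that did not were Atp5g2, Atp5e, Atp5b, Atp5l and Uqcrc1, and Uqcrc1 kept its call in 2 of 8 alternatives. Of the 16 calls against the control 0 were kept under every alternative. With a mean input of 1 FPKM as the filter, 0 members were higher and 0 lower, with adjusted p from limma between 0.0525 and 0.0867. With no replicate block 0 were higher and 3 lower, and Cox6a1, Sdhb and Cox6a2 kept their call there. Under the other alternatives the counts against the control ran from 4 to 8 higher and from 7 to 15 lower. Shares of all genes are given here for centring alone, so these counts do not show whether calls were lost for the members in particular. Leaving out either tet-LIN28B mouse left no residual degrees of freedom, so counts could not be tested. Of the values that changed sign 0 were called: the log2 ratio of Sdhc was -0.38 in mouse 1 and 0.20 in mouse 2, and the differences from the control changed sign for 5 members, Sdhc, Cox7b, Atp5e (0.47 and -0.13), Atp5l (0.15 and -0.39) and Atp5b (-0.23 and 0.01).

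Members sharing at most 10% of their 50-base stretches numbered 26, of which 4 were higher and 17 lower than input in tet-LIN28B, and 2 were higher and 8 lower than the control. All tested genes, not so restricted, were at 18.5% and 41.5% against input, and at 3.61% and 17.5% against the control. Centring gave 14 higher and 21 lower than input in tet-LIN28B. In the control IP, 4 members were lower than input under the study's filter, and 1 was lower with 50 FPKM in each input, a pseudocount of 0.1, centring or no trend. Shares of all genes lower in the control IP under these alternatives are not given, so such counts do not show a trait of the members.

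Medians moved as follows. For complex II in tet-LIN28B the log2 median was 0.73 under the study's filter, 0.40 with 50 FPKM in each input, 0.26 as TPM and 0.50 after centring. Complex III was at -0.22 under the study's filter and -0.33 after centring. Complex IV was at -1.09 under both filters of 50 FPKM and as TPM, at -1.31 with the filter of 1 FPKM and for protein-coding members, and at -0.86 after centring. Complex V was at -0.40 after centring, and between -1.01 and -0.86 with 1 mouse left out. In the control, TPM moved complex II to 0.22, complex III to 0.04, complex IV to -0.17 and complex V to -0.12.

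Uncalled directions reversed for some members. As TPM, Sdhc in tet-LIN28B turned to 0.01 and the difference of Cox7b to -0.16. After centring, the tet-LIN28B log2 ratio turned to 0.25 for Sdhc, 0.02 for Cycs, 0.08 for Uqcr11 and 0.17 for Uqcrfs1, and the difference from the control to 0.15 for Sdhc, 0.20 for Uqcr11, 0.21 for Atp5b, 0.20 for Uqcrfs1 and 0.20 for Atp5l. The cause was not tested. FPKM carry no counts, so the limit that depth sets on these ratios is unknown.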
